A study of Mus musculus with 6 samples.

Results

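The 9 genes described here (Clec4n, Clec4d, Clec4e, Clec4a1, Clec4a2, Clec4a3, Clec5a, Clec7a and Clec12a) code for C-type lectin receptors of myeloid cells. They were taken from a table of 54446 mouse gene identifiers by gene symbol. The list was selected on counts from these same libraries, with earlier results known, so the values are given as a description and no test was made of them. Bone marrow-derived macrophages (BMDMs) of male BALB/c mice aged 6 to 8 weeks had been grown for 7 days in medium with 20% conditioned medium of L929 cells, a fibroblast line that secretes macrophage colony-stimulating factor. They were left unpolarized (M0) or exposed for 24 hours to LPS (50 ng/mL) together with IFN-γ (20 ng/mL), giving M1, or to IL4 (20 ng/mL), giving M2. Each state was sequenced as a control (DMSO, the vehicle) and with regorafenib, a multikinase inhibitor, at 1 µM from 1 hour before polarization. The 6 conditions had 1 library each, of 25359309 to 34898342 counts, so differences between libraries have no replicate check, and every interval below covers counting error only.

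C-type lectin receptors are membrane proteins with which phagocytes recognise sugars and lipids of fungi, bacteria and damaged cells. Dectin-2 (Clec4n), MCL (Clec4d) and Mincle (Clec4e) signal through the adaptor Fcer1g, and MDL-1 (Clec5a) through Tyrobp and Hcst. Dectin-1 (Clec7a), the receptor for fungal beta-glucan, carries its own tyrosine motif. These receptors activate the kinase Syk and, through Card9, NF-kB. DCIR (Clec4a2) and MICL (Clec12a) carry inhibitory motifs, whereas the DCIR relatives coded by Clec4a1 and Clec4a3 lack that motif.

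All 9 genes lie on chromosome 6 (GRCm38). Of them 6 fell within a stretch of 368 kb (chr6:122921848-123289870), in the order Clec4a1, Clec4a3, Clec4a2, Clec4n, Clec4d and Clec4e. Clec12a and Clec7a stood at the ends of a stretch of 130 kb (chr6:129342691-129472779), and Clec5a lay apart from both (chr6:40574894-40585821, minus strand). Clec4e and Clec7a are also on the minus strand and the other 6 on the plus strand. The annotation used for names lists Clec7a as a polymorphic pseudogene. Between the lectin genes of the first stretch, Clec4a4 had at most 8 counts and Clec4b2 at most 2 in any library, and Clec4b1 had 12 counts in each M0 library, 94 in M2 control and 170 in M2 with regorafenib. The stretch therefore held genes at high and at near-zero counts side by side in the same libraries. No other annotated gene overlapped an exon of the 9. Reads that also match another gene are dropped by this kind of counting: of the words of 100 bases in the transcripts of Clec4a2, 2.14% also occurred in Clec4a4, and no such word of the other 8 genes occurred in another gene.

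The windows around the transcription starts (250 bases before to 50 after) are shown for 5 of the genes. They are from RefSeq (GRCm38.p6), from the reference strain and not from BALB/c. The 5 include the genes with a window that were higher with regorafenib or that differed most with polarization. They also include Clec4a2, which was 2-fold or more lower with regorafenib in M1. RefSeq gave 10 windows for 8 of the genes, with 2 starts for Clec4a3 and for Clec7a and no entry for Clec4n. Capitals mark the motif letters found by a search of both strands.
Clec4a1 (chr6:122921598-122921897, plus strand): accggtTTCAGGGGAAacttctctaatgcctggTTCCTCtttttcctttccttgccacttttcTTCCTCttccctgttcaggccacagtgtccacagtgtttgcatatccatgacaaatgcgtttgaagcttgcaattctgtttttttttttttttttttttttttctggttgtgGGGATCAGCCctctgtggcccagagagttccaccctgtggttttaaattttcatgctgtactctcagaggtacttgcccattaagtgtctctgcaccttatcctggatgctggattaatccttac
Clec4a3 (chr6:122952394-122952693, plus strand): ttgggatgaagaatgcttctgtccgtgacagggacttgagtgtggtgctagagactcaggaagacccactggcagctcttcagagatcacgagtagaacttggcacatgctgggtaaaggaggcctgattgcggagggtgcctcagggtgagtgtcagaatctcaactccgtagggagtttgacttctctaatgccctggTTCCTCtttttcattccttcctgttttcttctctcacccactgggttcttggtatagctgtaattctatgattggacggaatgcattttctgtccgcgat
Clec7a (chr6:129472730-129473029, minus strand): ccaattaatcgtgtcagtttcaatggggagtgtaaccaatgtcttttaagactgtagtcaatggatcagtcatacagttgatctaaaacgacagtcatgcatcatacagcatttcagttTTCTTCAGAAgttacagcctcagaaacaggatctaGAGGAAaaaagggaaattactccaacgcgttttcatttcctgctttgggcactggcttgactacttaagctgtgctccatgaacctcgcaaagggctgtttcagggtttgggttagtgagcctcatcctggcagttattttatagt
Clec4e (chr6:123289822-123290121, minus strand): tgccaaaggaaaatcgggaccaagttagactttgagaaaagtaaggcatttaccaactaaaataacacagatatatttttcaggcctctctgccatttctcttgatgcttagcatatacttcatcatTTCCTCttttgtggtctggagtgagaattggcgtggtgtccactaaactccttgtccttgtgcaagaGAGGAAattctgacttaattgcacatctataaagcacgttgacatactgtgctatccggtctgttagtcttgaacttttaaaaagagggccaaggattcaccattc
Clec4a2 (chr6:123122440-123122739, plus strand): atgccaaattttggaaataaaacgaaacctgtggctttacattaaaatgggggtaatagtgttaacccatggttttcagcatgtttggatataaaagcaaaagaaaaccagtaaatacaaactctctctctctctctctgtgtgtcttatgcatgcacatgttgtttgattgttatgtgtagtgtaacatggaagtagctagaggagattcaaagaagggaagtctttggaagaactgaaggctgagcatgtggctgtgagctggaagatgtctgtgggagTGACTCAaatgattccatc

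GAGGAA, the core of sites for the myeloid factor PU.1, was in 8 of the 10 windows, against 28.3% of all 32851 windows. By gene it was in 7 of 8, because the windows of Clec7a overlap and hold the same match. It was not in the window of Clec4a2 or in the other window of Clec4a3, which is not shown. The longer PU.1 word GAGGAAGT was in none of them, against 3.20%. The spaced palindrome bound by STAT6 was in the windows of Clec4a1, Clec5a and Clec7a (6.95% of all windows). The NF-kB motif was in Clec4a1 (20.7%), AP-1 TGANTCA in Clec4a2 and Clec12a (7.81%), and the interferon-stimulated response element (ISRE) in Clec4d (3.44%), where it overlapped a GAGGAA match. TGACGTCA, the full site of CREB (1.79%), its shorter form TGACG (20.8%) and CACGTG (7.15%) were in none. The window of Clec4a1 and the shown window of Clec4a3 shared 17 identical bases in a row, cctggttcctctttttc, 222 to 206 bases before the start of Clec4a1 and 55 to 39 bases before that of Clec4a3, and these hold a GAGGAA match on the other strand. The longest run shared by the windows of any other pair of the genes was 12 bases. These are matches of letters and not measured binding.

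Levels were compared between genes per length, as CPM (TMM-scaled counts per 1000000 counts of the library) divided by the kilobases of merged exons. In M0 control, Clec4d stood at 349.8, Clec12a at 51.3, Clec5a at 42.1, Clec4e at 37.0 and Clec4a2 at 22.4. Clec4a3 (10.3) and Clec4a1 (9.03) did not differ beyond counting error (ratio 1.14, 0.996 to 1.31), and Clec4n (6.65) and Clec7a (3.37) were the lowest. Unpolarized cells thus carried mainly Clec4d transcript, which made up 65.8% of the level summed over the 9 genes. In M1 control the sum was 2065, against 532 in M0 control, and Clec4e held 57.9% of it. In M2 control the sum was 493 and Clec4d again led with 61.6%, followed by Clec7a with 12.9% and Clec4a3 with 6.19%. Clec4a3 and Clec12a stood side by side there without a difference beyond counting error (ratio 1.03, 0.974 to 1.09).

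**Figure D1:**
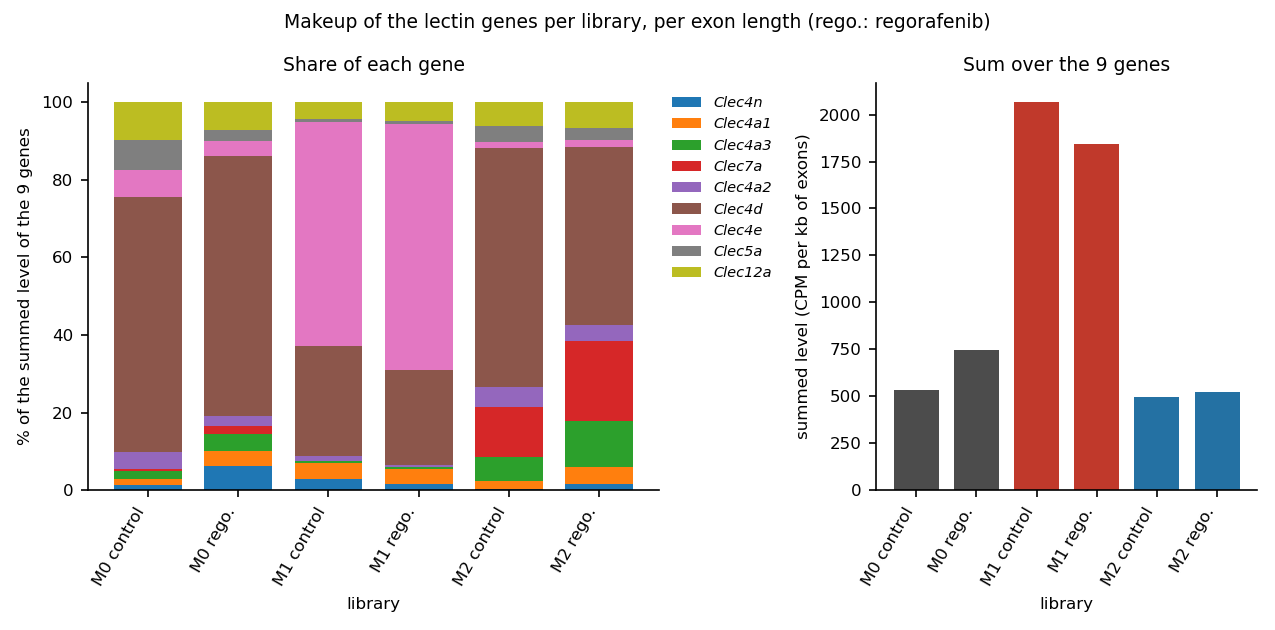
Stacked bars give the percent of the summed level of the 9 genes (CPM per kilobase of exons) held by each gene in each of the 6 libraries, and the right panel gives the sum itself. Clec4d holds 65.8% in M0 control and 61.6% in M2 control, Clec4e holds 57.9% in M1 control, and the sum is 532, 2065 and 493 in M0, M1 and M2 control.

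The order of the levels in M0 differed between control and regorafenib. There Clec4n stood behind Clec4d and Clec12a at 45.6, followed by Clec4a3 at 33.5 and Clec4a1 at 28.9, and all of them were above Clec4e (27.8), Clec5a (21.5) and Clec4a2 (18.9). Clec4a1 and Clec4e did not differ beyond counting error in that library (ratio 1.04, 0.981 to 1.10). In M1 the first 5 ranks (Clec4e, Clec4d, Clec12a, Clec4a1, Clec4n) were those of the control library. In M2 with regorafenib, Clec7a held 20.7% and Clec4a3 12.1% of the sum, and Clec4d held 45.7%. Clec4a1 and Clec4a2 were level with each other there (ratio 1.05, 0.971 to 1.14).

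The comparison of regorafenib with control asked how the kinase inhibitor altered each receptor gene within a polarization state. A gene was counted as higher or lower when the ratio reached 2-fold and at least 10 counts were present in 1 of the 2 libraries. In M0, 4 of the 9 genes (Clec4n, Clec7a, Clec4a3, Clec4a1) were higher and 0 were lower, where 9.47% of the 13964 genes with that count were higher and 10.9% lower. In M1, 0 were higher and 2 were lower (Clec4a2 and Clec4n), against 1.76% and 3.46% of 13440 genes. In M2, 3 were higher (Clec4n, Clec4a1, Clec4a3) and 0 lower, against 6.15% and 5.07% of 13813 genes. The median log2 ratio of the 9 genes was 0.52 in M0, -0.30 in M1 and 0.27 in M2, beside medians over all these genes of 0.01, -0.02 and -0.03. In bulk RNA, more transcript per cell and a larger share of cells with the transcript cannot be told apart.

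**Figure D2:**
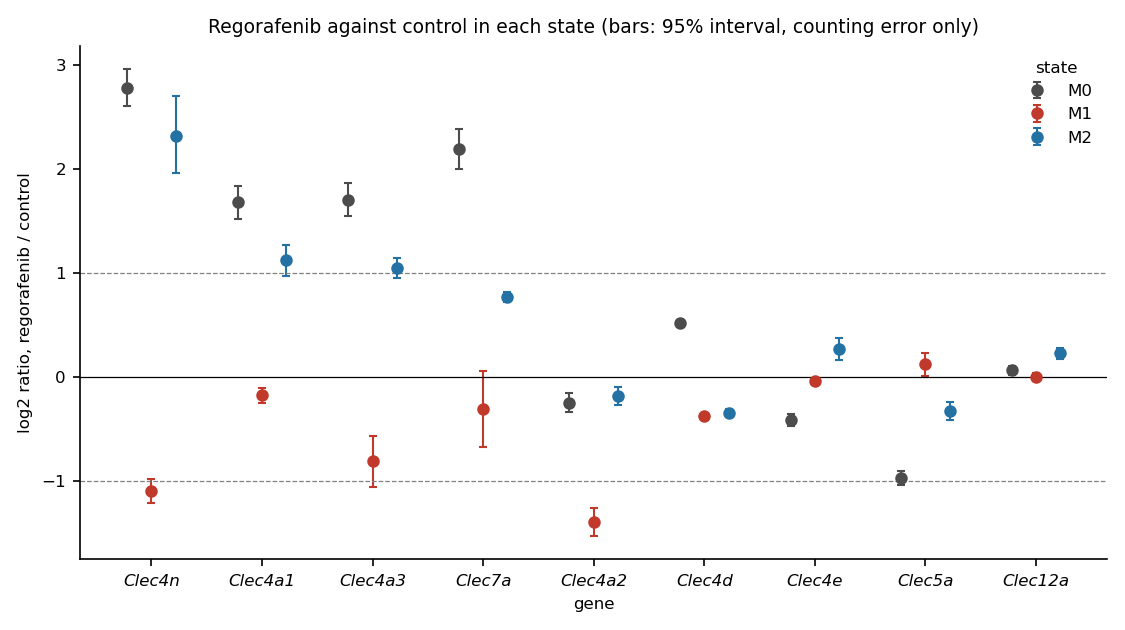
Points give the log2 ratio of regorafenib to control for each gene in M0, M1 and M2, with bars for the 95% interval from counting error and dashed lines at 2-fold. Clec4n lies at 2.78 in M0 and 2.32 in M2 but at -1.09 in M1, and Clec12a lies near 0 in all states.

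Clec4n, the receptor for fungal mannans, had the widest regorafenib ratios of the list in M0 and M2, and the widest after Clec4a2 in M1. Its values were 9.44 CPM in M0 control and 64.8 with regorafenib, 81.7 and 38.3 in M1 and, for M2, 2.16 and 10.8, from 290, 2135, 2111, 923, 79 and 302 counts. The drug library was the higher in M0 and M2 and the lower in M1. The log2 ratio was 2.78 in M0 (95% interval 2.60 to 2.96), a 6.86-fold difference that 0.909% of the genes exceeded. It was 2.32 in M2 (1.957 to 2.695; 4.99-fold) and -1.09 in M1 (-1.21 to -0.98). With regorafenib the M0 library reached a Clec4n level close to that of M1 control, whereas M2 with regorafenib stayed near M0 control.

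Clec7a, Clec4a3 and Clec4a1 were also higher with regorafenib in M0. Clec7a measured 8.89 CPM in M0 control and 40.4 with regorafenib, 5.73 and 4.65 in M1 and, for M2, 168 and 286. The ratio was 4.55-fold in M0 (log2 2.19, 1.997 to 2.38) and 1.70-fold in M2 (log2 0.77, 0.72 to 0.82). In M1 it had 148 and 112 counts and the interval held 0 (log2 -0.30, -0.67 to 0.06). Clec7a was thus low in both M1 libraries and high in both M2 libraries, with the M0 regorafenib library between them.

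Clec4a3, an immunoreceptor of the DCIR group without the inhibitory motif, measured 13.7 CPM in M0 control and 44.4 with regorafenib, 15.2 and 8.71 in M1 and, for M2, 40.5 and 83.9. The ratio was 3.25-fold in M0 (log2 1.70, 1.54 to 1.86) and 2.07-fold in M2 (log2 1.05, 0.95 to 1.14), and the log2 ratio in M1 was -0.81 (-1.06 to -0.56). The M0 regorafenib library was therefore at about the level of M2 control. Its neighbour Clec4a1 measured 14.1 and 45.0 CPM in M0, 132 and 118 in M1 and, for M2, 16.5 and 35.8. The ratio was 3.20-fold in M0 (log2 1.68, 1.52 to 1.84) and 2.17-fold in M2 (log2 1.12, 0.97 to 1.27), and the log2 ratio in M1 was -0.17 (-0.24 to -0.10). For both genes the M0 and M2 ratios pointed up and the M1 ratio down. In M2 both intervals reached just below 2-fold.

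Clec4a2, which codes for the inhibitory receptor DCIR, followed another pattern. It measured 65.7 and 55.4 CPM in M0, 67.9 and 25.9 in M1 and, for M2, 72.6 and 64.0. The M1 regorafenib library stood below the other libraries, which lay between 55.4 and 72.6 CPM. The log2 ratio was -1.39 in M1 (-1.52 to -1.26; 2.62-fold lower), and it was -0.25 in M0 and -0.18 in M2.

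Clec5a, the Tyrobp-coupled receptor, measured 162 CPM in M0 control and 82.7 with regorafenib, 51.5 and 56.1 in M1 and, for M2, 78.7 and 62.9. The log2 ratio in M0 was -0.97 (-1.03 to -0.90), just short of 2-fold, and those in M1 (0.12) and M2 (-0.32) were smaller. M0 control was the highest of the 6 libraries for this gene.

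Clec4d, Clec4e and Clec12a were the genes with the most counts over the 6 libraries together and stayed within 2-fold of control in every state. Clec4d, the partner of Mincle, measured 559 and 801 CPM in M0, 937 and 725 in M1 and, for M2, 486 and 383, with log2 ratios of 0.52 (0.49 to 0.55), -0.37 (-0.40 to -0.34) and -0.34 (-0.38 to -0.31). Clec4e, the receptor for mycobacterial cord factor, measured 183 and 138 CPM in M0, 5939 and 5794 in M1 and, for M2, 40.5 and 48.8. Its M1 libraries held 153437 and 139633 counts and differed by a log2 ratio of -0.04 (-0.05 to -0.03), which was positive when libraries were scaled to their total counts. Clec12a, the inhibitory receptor MICL, measured 283 and 297 CPM in M0, 496 and 498 in M1 and, for M2, 164 and 192, with log2 ratios of 0.07, 0.00 and 0.23. The M1 value of Clec12a was within counting error of 0 (-0.03 to 0.04) and turned negative under upper-quartile scaling.

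**Figure D3:**
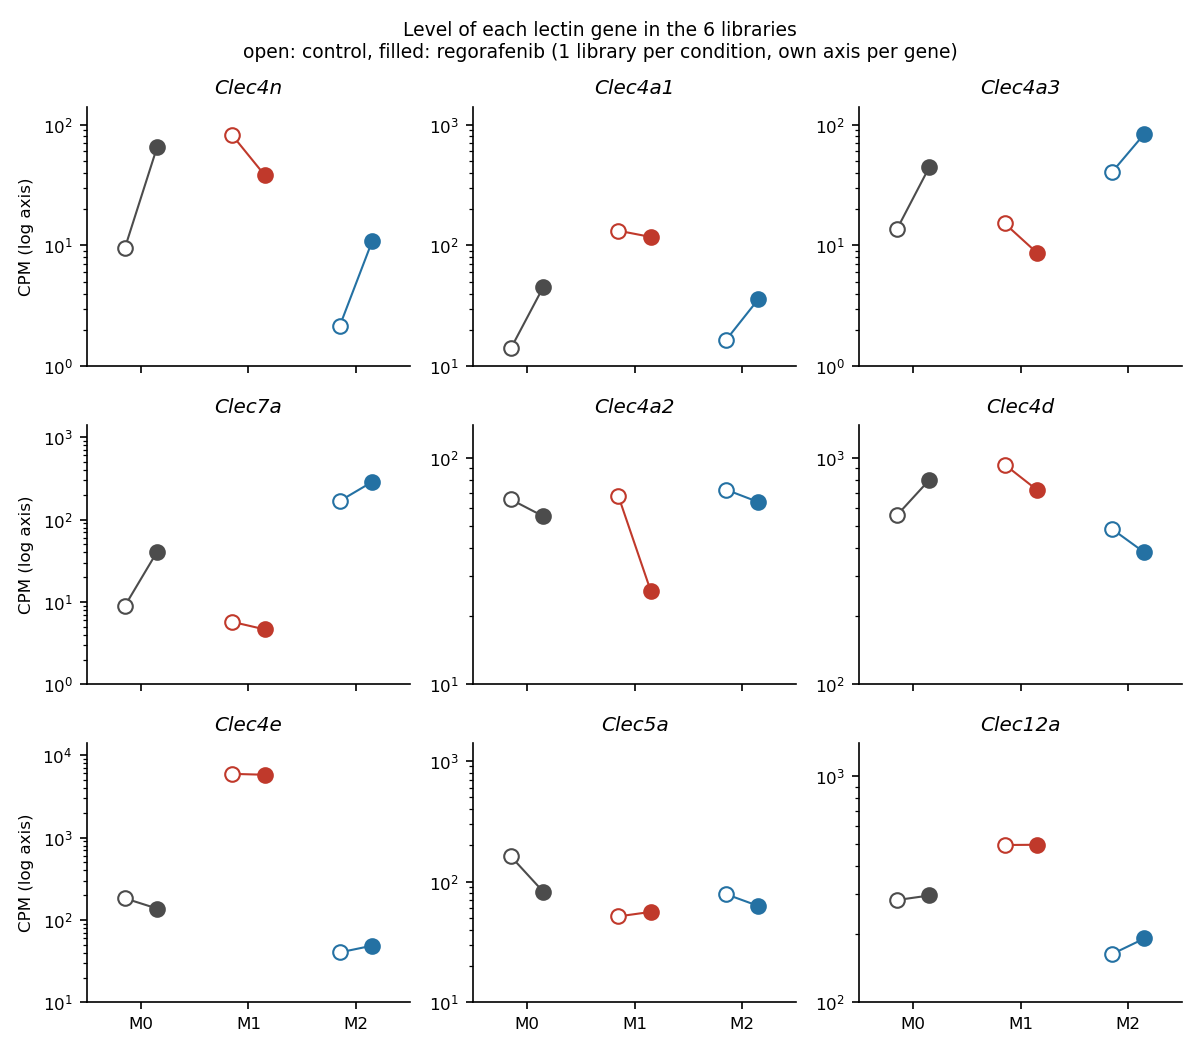
Each panel gives the CPM of a gene (log axis, its own range) in M0, M1 and M2, with open circles for control and filled circles for regorafenib, 1 library each. Clec4n goes from 9.44 to 64.8 CPM in M0 and from 81.7 to 38.3 in M1, while the 6 libraries of Clec4d lie between 383 and 937.

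The comparison of M1 with M0 asked how IFN-γ and LPS altered the genes. Without regorafenib 3 genes were 2-fold or more higher (Clec4e, Clec4a1, Clec4n) and 1 was lower (Clec5a), against 17.4% and 19.7% of 14168 genes. Clec4e, which is known to be induced by LPS, was 32.4-fold higher (log2 5.02, 4.98 to 5.06), Clec4a1 9.42-fold (log2 3.24, 3.09 to 3.38) and Clec4n 8.65-fold (log2 3.11, 2.94 to 3.30). Clec5a was 3.13-fold lower (log2 -1.65, -1.74 to -1.56). Clec12a (log2 0.81) and Clec4d (0.74) were higher and Clec7a (-0.63) was lower by less than 2-fold, though Clec7a stood at -1.07 when libraries were scaled to total counts. Clec4a2 (0.05, -0.05 to 0.14) and Clec4a3 (0.16, -0.04 to 0.36) were within counting error of 0, and both turned negative when libraries were scaled to total counts, which moved the median of all genes by -0.44 in this comparison.

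With regorafenib in both libraries, 2 genes were higher in M1 than in M0 (Clec4e and Clec4a1) and 3 were lower (Clec7a, Clec4a3, Clec4a2), against 16.3% and 21.6% of 14159 genes. Total-count scaling moved the median of all genes by -0.41 here, and with it Clec4a1 was short of 2-fold (0.97) and Clec4n was lower by more than 2-fold (-1.17). Clec4e was 42.0-fold higher (log2 5.39, 5.35 to 5.44) and Clec4a1 2.61-fold (log2 1.39, 1.29 to 1.48). Clec4n, at 64.8 CPM in M0 and 38.3 in M1, was lower in M1 by 1.69-fold (log2 -0.76, -0.87 to -0.65), the opposite direction to that without the drug. Clec7a was 8.70-fold lower (log2 -3.12, -3.41 to -2.84), Clec4a3 5.10-fold lower (log2 -2.35, -2.57 to -2.14) and Clec4a2 2.13-fold lower (log2 -1.09, -1.23 to -0.96). Clec5a, lower in M1 by log2 -1.65 without the drug, stood at -0.56 with it.

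The comparison of M2 with M0 asked the same of IL4. Without regorafenib 2 genes were higher (Clec7a and Clec4a3) and 3 lower (Clec4e, Clec4n, Clec5a), against 4.69% and 7.61% of 13830 genes. Clec7a was 18.9-fold higher (log2 4.24, 4.07 to 4.42), a ratio that 0.296% of the genes exceeded, and Clec4a3 was 2.96-fold higher (log2 1.57, 1.41 to 1.73). Clec4e was 4.54-fold lower (log2 -2.18, -2.26 to -2.10), Clec4n 4.36-fold lower (log2 -2.13, -2.50 to -1.76) and Clec5a 2.05-fold lower (log2 -1.04, -1.10 to -0.97), which became -0.99, short of 2-fold, under upper-quartile scaling. Clec4e and Clec4n were thus higher in M1 and lower in M2 than in the M0 control library that both comparisons share.

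With regorafenib in both libraries, 1 gene was higher in M2 than in M0 (Clec7a) and 3 were lower (Clec4n, Clec4e, Clec4d), against 4.41% and 5.18% of 13841 genes. Clec7a was 7.07-fold higher (log2 2.82, 2.74 to 2.91). Clec4n was lower by a log2 ratio of -2.58 (-2.76 to -2.41), Clec4e 2.82-fold lower (log2 -1.50) and Clec4d 2.09-fold lower (log2 -1.06). Clec4a3 was 1.89-fold higher (log2 0.92, 0.82 to 1.01), short of 2-fold.

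**Figure D4:**
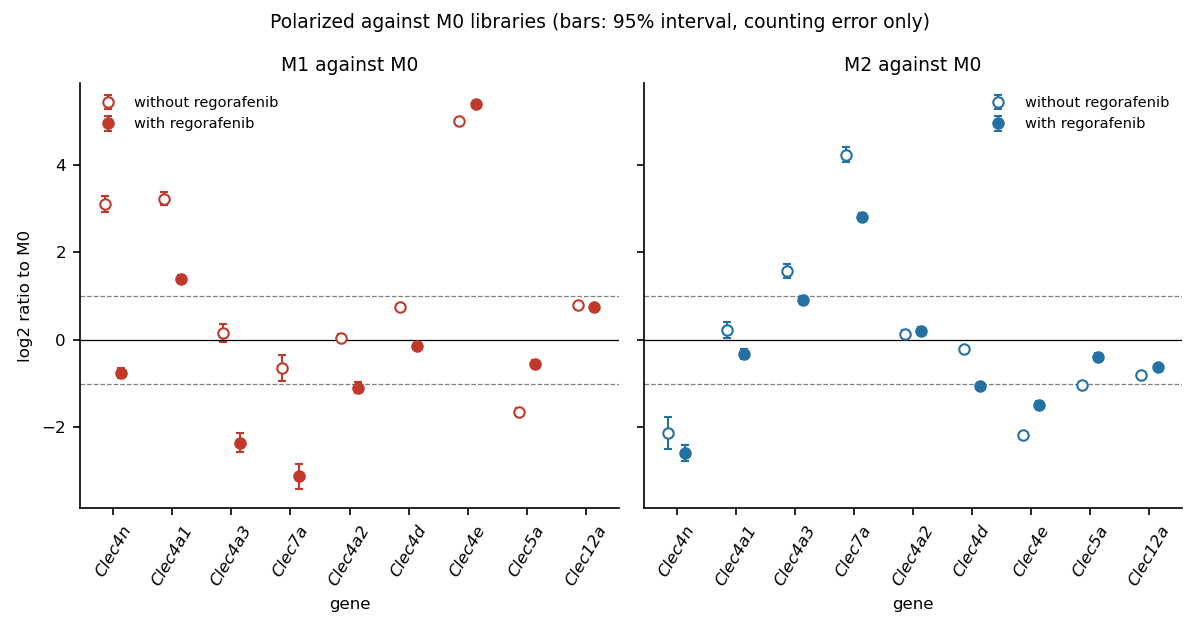
Points give the log2 ratio of M1 (left) and M2 (right) to M0 for each gene, open without and filled with regorafenib in both libraries, with bars for the 95% interval from counting error and dashed lines at 2-fold. Clec4n moves from 3.11 to -0.76 in M1, Clec7a from 4.24 to 2.82 in M2, and Clec4e stays above 5 in M1.

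The genes with the most similar profile were found among 10667 other protein-coding genes that reached 100 counts in 1 or more libraries, by the root mean square difference of centred log2 CPM over the 6 libraries. Nearest to Clec4n was Pla2g7 (0.59), the platelet-activating factor acetylhydrolase, with 2141, 11881, 32723, 16093, 1099 and 3100 counts in M0, M1 and M2, control before regorafenib in each, followed by Tlr2 (0.67) and Slc39a4 (0.69). Pla2g7, which was picked by its likeness to Clec4n in these libraries, was higher with the drug in M0 and M2 and lower in M1. Tlr2 was higher with the drug in M1 too (6990 and 8780 counts). Nearest to Clec7a were Irf4 (0.43) and Egr2 (0.58), both transcription factors, and Gm8113 (0.62). Nearest to Clec4a1 were Arid5a (0.14), Apba1 (0.18) and Tnfrsf1b (0.24), and to Clec4a3 were Zfp36l1 (0.26), Numbl (0.26) and Thrb (0.27). The distances for Clec4n and Clec7a were larger than those for Clec4a1, so none of the genes compared followed these profiles as closely. Nearest to Clec4e were Gbp7 (0.13), an interferon-induced guanylate-binding protein gene, Hip1r (0.38) and Bcar1 (0.40). Nearest to Clec4a2 were the repressor gene Bcl6 (0.14), Stra6l (0.22) and Rassf8 (0.23). Bcl6 had 2030 counts in M1 control and 614 with regorafenib, beside 1754 and 625 for Clec4a2. For Clec12a they were Dock5 (0.04), Atxn7l1 (0.10) and Abhd6 (0.11), for Clec4d Dennd6b (0.13), Lpin2 (0.14) and Trps1 (0.15), and for Clec5a Slc9a5 (0.10), Cdkn2d (0.11) and Hacd2 (0.14). Among the lectin genes themselves, Clec4d and Clec12a were the closest pair (0.34), whereas Clec4d and Clec4n, which lie next to each other, differed by 1.49.

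The signalling genes behind these receptors are read against the same shares of all genes, 9.47% higher and 10.9% lower in M0, 1.76% and 3.46% in M1 and, for M2, 6.15% and 5.07%. Of the 3 adaptor genes, Fcer1g had log2 ratios of -0.15, 0.24 and -0.35 in M0, M1 and M2 and Tyrobp of 0.24, 0.13 and 0.05, and Hcst alone reached 2-fold, with 120 and 282 counts in M0 (log2 1.13). Of 25 genes of the Syk and Card9 pathway, 0 were 2-fold higher or lower in M0. In M1 it was 0 of the 24 with enough counts. In M2 Fgr was higher (log2 1.34) and Vav3 lower (-1.03), and the M1 and M2 counts are near the shares of all genes. Syk itself stood at 0.70, 0.07 and 0.20, and Card9 at 0.66, 0.15 and 0.39. Of 9 genes for phosphatases and other brakes on this signalling, Ptpn22 (log2 -1.83) and Ubash3b (-1.32) were lower in M0 and Ptpn22 (-1.88) was lower in M2. The median log2 ratio of the pathway list was 0.12, -0.04 and 0.20 in the 3 states, beside the 0.01, -0.02 and -0.03 of all genes.

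Genes known to be induced through Dectin-1 or Mincle differed in both directions with regorafenib. Of the 20 listed, 15 had enough counts in M0, where 1 was higher (Il6, 5 and 12 counts) and 6 were lower (Tnf, Il10, Cxcl2, Ptgs2, Ccl3, Ccl4), against 9.47% and 10.9% of all genes. In M1 3 of 19 were higher (Il12b, Il23a at 7 and 67 counts, Csf2 at 70 and 462), against 1.76% of all genes. In that state 1 was lower (Il10), against 3.46%. In M2 0 of 14 were higher and 4 were lower (Il6 at only 12 and 4 counts, Il10, Ccl3, Ccl4), against 6.15% and 5.07%. Il10, which codes for an anti-inflammatory cytokine, had 24 and 4 counts in M0, 497 and 96 in M1 and, for M2, 67 and 11. It was lower with the drug in every state, also in those where Clec4n was higher.

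Markers of macrophages were present in every library (summed over 8 genes, 30041 CPM in M0 control and 48383 with regorafenib, 27612 and 29779 in M1, 22002 and 33592 in M2), and the sums for other cells were lower. Lyz2 made up most of the macrophage sum (25969 and 42740 CPM in M0), and Fcgr1 went the other way, lower with regorafenib in every state (log2 -1.48, -1.23 and -1.25). The 6 lymphocyte markers had at most 3 counts each. The summed CPM of 10 dendritic cell markers was 11.1 to 14.7 in M0, 50.5 to 71.2 in M1 and, for the M2 control and regorafenib libraries, 161 and 341, and of these Siglech was at 0 and Flt3 and Clec9a had at most 3 counts in every library. Nearly all of the M2 sums was Itgax (160 and 338 CPM), and in M1 Ccr7 (30.2 and 34.3 CPM) and Itgax (17.0 and 27.8 CPM) were its main parts. The 10 neutrophil markers summed to 110 and 207 CPM in M0 control and regorafenib, 210 and 134 in M1 and, for M2, 98.8 and 147. Ly6g and Retnlg were at 0, and the sums came mostly from Mpo (2064 to 5124 counts in a library), Mmp8 (358 to 1610) and, in M1, S100a8 (1804 and 489). The 6 monocyte markers summed to 10.9 and 23.8 CPM in M0, 2.4 and 1.58 in M1 and, for M2, 18.2 and 39.9, and the 6 fibroblast markers to 3.19 and 10.2 in M0, 9.10 and 6.85 in M1 and, for M2, 3.56 and 5.76. The neutrophil, monocyte and fibroblast sums were thus higher with regorafenib in M0 and M2 and lower in M1. Clec4n, Clec4a1 and Clec4a3 had the same directions. Single genes carried much of these sums, and others in the lists went the other way. S100a8 was lower in M0 and M2 (log2 -0.54 and -0.42), and Mpo was not lower in M1 (0.05). Chil3 made up most of the M2 monocyte sums (10.4 and 24.1 CPM). The M1 fibroblast difference was mainly Dcn (3.87 and 1.62 CPM), with Col1a1 and Col1a2 slightly higher. The part of such cells in the receptor differences was not tested.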

How the data were processed

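RNA of BMDMs from 6 conditions, 1 library each, was sequenced after a stranded poly(A) protocol. The counts per gene were deposited by the authors without normalization. Per the submitters' processing notes, reads were trimmed with cutadapt 2.4 and mapped to GRCm38 with STAR 2.7.2a, and by the study's methods STAR counted reads per gene on Gencode, from a strand column that is not stated. Uniquely mapped reads only enter such counts. Names, positions and exon lengths were taken from Gencode M21 (GRCm38), and of 54446 identifiers 53229 matched with version, 1180 without it and 37 not at all.

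Counts were scaled by TMM (edgeR 4.0.16 in R 4.3.3), with factors from 0.820 to 1.12. Log2 ratios were taken between 2 libraries, a count of 0 being replaced by 0.5, and their 95% intervals are conditional exact binomial intervals. With 1 library per condition no test was made, and the simulated replicates of NOISeq, used in the study, were not used. Ratios, intervals and motif search were tested on simulated data. A further planned motif is not reported here. Alternatives were scaling to total counts, DESeq2 1.42.0 size factors or the upper quartile, adding 1 CPM, thresholds of 1.5-fold and 4-fold, and no minimum count. The genes named besides the 9 were members of the lists at 2-fold or with a named role and the 3 nearest profiles per gene. The 9 genes and all lists were chosen with earlier results of these data known. Level differences between genes assume merged exon length, and isoforms were not resolved. Computation used Python 3.11.15.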

Additional observations from a re-analysis of the deposited data

Results flagged for a closer look

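The log2 ratio of regorafenib to control had a different sign in 1 state than in another, beyond counting error and under each of the 4 scalings, for 6 of the 9 genes and 11 of the 27 pairs of states. Of the 12554 genes with at least 10 counts in 1 of the 2 libraries of each state, 24.2% met the same rule, and of the 9391 with at least 79 counts in every library, the lowest count of the 9 genes, 29.2% did. Of their pairs of states, 13.6% of 37662 and 16.7% of 28173 did. The 9 genes were selected with their values known, so nothing is read from the difference in these shares. With 1 library per condition the difference between states was not tested, and the intervals cover counting error only.

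For Clec4n the ratio in M0 minus that in M1 was 3.87 (3.66 to 4.08), and that in M1 minus that in M2 was -3.41 (-3.79 to -3.04). For Clec4a3 the same differences were 2.51 (2.22 to 2.80) and -1.86 (-2.12 to -1.60), and for Clec4a1 they were 1.85 (1.68 to 2.02) and -1.29 (-1.45 to -1.13). In these genes the M1 ratio was below 0 and the M0 and M2 ratios above it.

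For Clec5a the M0 ratio minus the M1 ratio was -1.09 (-1.22 to -0.96) and the M1 ratio minus the M2 ratio was 0.45 (0.31 to 0.59), M1 being the state with the positive ratio. For Clec4d the M0 ratio exceeded that in M1 by 0.89 (0.85 to 0.93) and that in M2 by 0.86 (0.82 to 0.91). For Clec4e the M0 ratio minus the M2 ratio was -0.68 (-0.80 to -0.56). All ratios of Clec4d and Clec4e behind these values were under 2-fold.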

How the results depend on the processing

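No replicate could be left out and no replicates could be paired across conditions, because each condition had 1 library and the labels carry no replicate numbers, so the intervals leave out the spread between cultures. Of the 14 counts of genes past 2-fold (7 comparisons, each direction), all 14 stayed within 1.5 times of the reported count under DESeq2 size factors, upper-quartile scaling, 1 CPM added and no minimum count. Under the upper quartile 2 genes in place of 3 were lower in M2 against M0 without regorafenib (Clec5a stood at -0.99). Scaling to total counts moved 2 of them: in M1 against M0 without regorafenib 2 genes were lower in place of 1 (Clec7a was added, at -1.07), and with regorafenib 1 was higher in place of 2 (Clec4a1 stood at 0.97). At 1.5-fold, 1 gene was lower with regorafenib in M0 (Clec5a), 5 were higher and 2 lower in M1 against M0 without regorafenib, and 2 were higher in M2 against M0 with it. At 4-fold, 2 were higher with regorafenib in M0, 0 lower in M1 and 1 higher in M2, 0 were lower in M1 against M0 and 1 higher in M2 against M0 without regorafenib, and with it 1 was higher in M1 and 1 lower in M2. No ratio of 2-fold or more changed direction under any of the 4 alternatives to the scale of the values. Of the 63 ratios, 3 changed sign under total-count scaling and 1 under the upper quartile, all of them near 0. Adding 1 CPM moved a ratio by at most 0.42, and DESeq2 size factors by at most 0.07. Depth limits the low libraries most, as for Clec4n in M2 control (79 counts).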

Other observations

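Of 30 other C-type lectin receptor genes, 15 had enough counts in the M0 libraries. With regorafenib 3 of these were 2-fold or more higher (Mrc2, Clec1a, Clec2d) and 3 lower (Olr1, Klra2, Pla2r1). Of all genes 9.47% were higher and 10.9% lower. Counts were low, control before regorafenib, for Mrc2 (3 and 18), Clec1a (5 and 22) and Olr1 (11 and 5). Clec2d, a lectin-like ligand of natural killer cell receptors, had 278 and 641 counts in M0, 1638 and 1254 in M1 and, for M2, 451 and 491, control before regorafenib. Klra2, of the Ly49 family, was lower in every state, with 567 and 193, 1520 and 976, and 249 and 52 counts. In M1 11 had enough counts, and 1 was higher (Cd69, an early activation antigen, 1251 and 2388 counts) and 2 were lower (Mrc1, at only 20 and 9 counts, and Colec12, at 3553 and 1651), against 1.76% and 3.46% of all genes. In M2 3 of 14 were higher (Clec1a, Clec2i, Clec4b1) and 4 lower (Mgl2, Clec10a, Olr1, Klra2), against 6.15% and 5.07%. Of these, Clec1a had only 10 and 33 counts and Olr1 49 and 13.

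Clec10a and Mgl2, which code for galactose-type lectins and are markers of IL4-treated macrophages, had 1449 and 237 counts and 2017 and 305 counts in the M2 libraries (log2 ratios -2.23 and -2.34). Clec7a, also high in M2 control, was higher with regorafenib there (6133 and 7996 counts, log2 0.77). Further genes that were higher in M2 than in M0 control went both ways with the drug in M2. Mrc1 was lower (log2 -0.53), and Chil3 (1.22), Clec4b1 (1.24) and Egr2 (0.74) were higher.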
